A study of Mus musculus with 16 samples.

Results

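Jdp2 was added to the reprogramming mixture of Klf4, Sox2 and c-Myc (KSM) in mouse embryonic fibroblasts (MEF), and RNA was taken on day 3 after virus. The library of KSM with Jdp2 was set against the library of KSM with DR, taken here as the control vector, since the labels do not explain the name. These are 2 of the 16 samples of the series. The pair was defined by its labels, with earlier results of these data known. Both cultures were OG2 transgenic MEF at passage 2, from mice with a fluorescent reporter of Oct4, and both carried the 3 KSM factors, so KSM itself is shared and does not differ between them. The labels give the strain as a mixture of 129SVJ, C57B6 and CBA, with the CBA share written differently for each library, and do not say whether cultures were made from the same embryos. The series also holds KSM with c-JunDN and KSM with Oct4 on the same day, and MEF given Jdp2 or DR without KSM. These are set beside the main pair where they bear on it. Each group is 1 library, so no difference has a replicate check and no p-value is given. The stated question was why Jdp2 and c-JunDN can take the place of Oct4 in reprogramming.

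Jdp2 encodes a basic leucine zipper protein that dimerises with Jun proteins and represses transcription from AP-1 sites. AP-1 is the family of Jun and Fos dimers that bind the TRE, a short palindrome, and the related CRE, and it maintains many genes of fibroblasts and of the response to growth factors. Early reprogramming of fibroblasts passes through a mesenchymal-to-epithelial transition, in which matrix and mesenchymal genes fall and epithelial genes rise, before endogenous pluripotency genes are switched on.

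Expected counts summed to 2623566 in KSM with Jdp2, 2976932 with c-JunDN, 3440917 with Oct4 and 2556709 with DR. A count of 3 equals 1.01 CPM (counts scaled to library size) in the Jdp2 library, and lower values are under the detection floor. Changes are differences of log2(CPM + 1). A gene was measured with at least 5 CPM in either library of a pair, and it is said to have risen or fallen where the change was 2-fold or more. Intervals in brackets after a fold are 95% exact binomial intervals that cover counting error only. In bulk RNA, fewer cells of a type and less RNA per cell cannot be told apart.

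Jdp2 itself stood at 366 CPM in KSM with Jdp2, against 4.71 CPM with c-JunDN, 3.90 CPM with Oct4 and 2.94 CPM with DR. The Jdp2 library was therefore 124-fold higher than DR (62.9 to 289), and its own gene goes with its label. Counts cannot separate introduced from endogenous transcripts. Klf4 stood at 804 CPM with Jdp2 and 809 CPM with DR, Sox2 at 511 CPM with Jdp2 and 583 CPM with DR, and Myc, the gene of c-Myc, at 769 CPM with Jdp2 and 850.0 CPM with DR. The log2 changes of these 3 factors were -0.01, -0.19 and -0.14. Jun, which encodes c-Jun, a partner of Jdp2 in AP-1 dimers, was at 86.8 CPM with Jdp2 and 67.0 CPM with DR, a change of 0.37. Pou5f1, the gene of Oct4, was at 10.5 CPM with Jdp2, 8.80 CPM with c-JunDN, 1711 CPM with Oct4 and 4.05 CPM with DR. The Jdp2 library was 2.58-fold above DR for it (1.26 to 5.70), on 31 counts against 11.

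Most genes differed by less than 2-fold. Of 10763 measured genes, 288 rose with Jdp2 (2.68% of those measured) and 141 fell (1.31%). The counting interval left out 1 for 281 and 138 of them. At least 4-fold differences were found for 38 genes that rose and 13 that fell. Genes with few counts weigh on these totals, since 444 genes were measured through the Jdp2 library alone and 219 through DR alone. With at least 5 CPM in both libraries, 113 of 10100 genes rose and 70 fell. With at least 20 CPM in either, 85 of 7817 rose and 63 fell. The median over all measured genes was -0.03, and 45.6% of them lay above 0. At these shares a short list holds few called genes, so a single call in a list below is not read as a result.

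**Figure D1:**
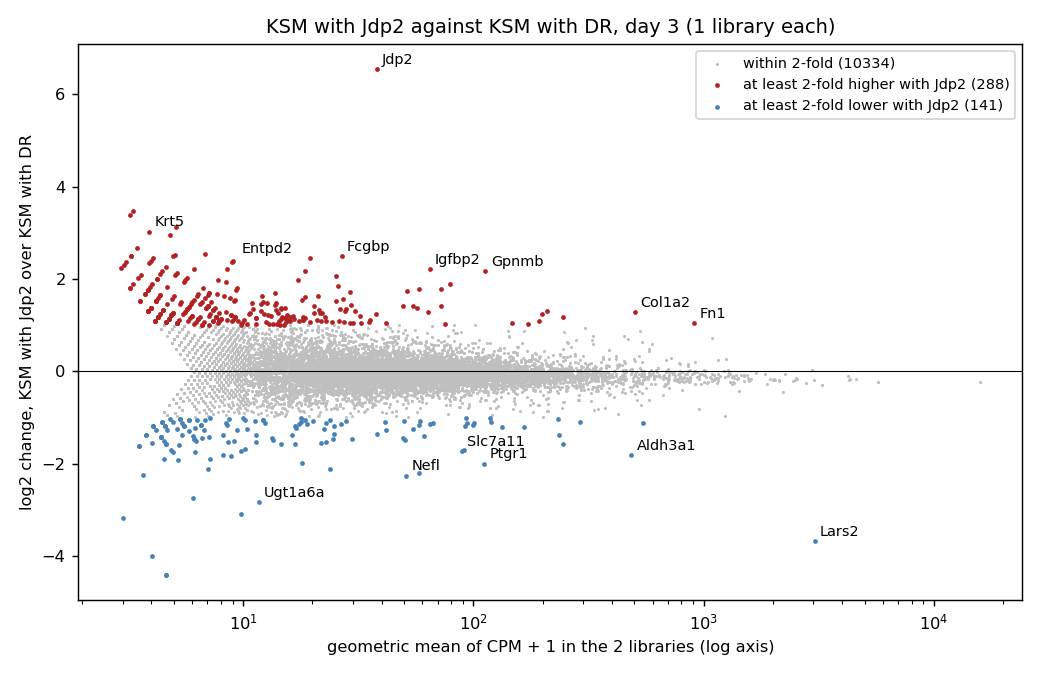
Change of each measured gene on the log2 scale (vertical axis, KSM with Jdp2 over KSM with DR) against the geometric mean of its CPM + 1 in both libraries (horizontal log axis), 1 library each. Coloured points are the 288 genes that rose and the 141 that fell by 2-fold or more; most lie at low levels, and Fn1, Col1a2, Aldh3a1 and Lars2 are examples at high levels.

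The 15 highest genes were led by Jdp2 and, after it, by Fcgbp, Entpd2 and Igfbp2. Fcgbp, a mucin-like secreted protein, was at 62.4 CPM with Jdp2, 23.3 CPM with c-JunDN, 0.835 CPM with Oct4 and 10.3 CPM with DR. It rose 6.06-fold (4.06 to 9.37), and the Jdp2 library was the highest of the 4. Entpd2, an ectonucleotidase that hydrolyses extracellular ATP, rose 6.05-fold (3.76 to 10.2), at 44.6 CPM with Jdp2, 26.7 CPM with c-JunDN, 1.11 CPM with Oct4 and 7.36 CPM with DR. Igfbp2, a binding protein of insulin-like growth factors, rose 4.74-fold (3.71 to 6.11), at 138 CPM with Jdp2, 82.9 CPM with c-JunDN, 6.40 CPM with Oct4 and 29.1 CPM with DR. All 3 genes held the same order, with Jdp2 first, c-JunDN next, then DR, and Oct4 last.

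Gpnmb, a transmembrane glycoprotein, was at 238 CPM with Jdp2, 57.8 CPM with c-JunDN, 26.4 CPM with Oct4 and 52.3 CPM with DR. It rose 4.56-fold against DR (3.80 to 5.50), and the other 3 libraries all lay more than 2-fold under Jdp2. Sepp1, the plasma selenium carrier, was at 134 CPM with Jdp2, 59.7 CPM with c-JunDN, 52.0 CPM with Oct4 and 37.9 CPM with DR. It too was highest with Jdp2, with a change of 1.79 against DR. Other genes among the highest were Atp1b1, the beta subunit of the sodium pump (2.18), Trh, the precursor of thyrotropin-releasing hormone (2.06), and Crct1, a gene of the epidermal differentiation complex (1.98). Col2a1, the collagen of cartilage (1.89), Frem2, a basement membrane protein (1.77), Nrk, a kinase gene (1.69), Sept3, a septin (1.63), and Rec8, a meiotic cohesin (1.62), were also among them. Trh stood at 50.6 CPM with Jdp2, 59.7 CPM with c-JunDN, 26.7 CPM with Oct4 and 11.4 CPM with DR, so there the DR library was the one apart.

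Of the 14 measured epithelial genes of 28 listed, 3 rose (21.4%, beside 2.68% of all measured genes) and none fell. Their median was 0.49. Over the 11 with 5 CPM in both libraries, 2 rose and the median was 0.26. Esrp2, a splicing regulator of epithelial transcripts, was at 31.4 CPM with Jdp2, 22.9 CPM with c-JunDN, 27.6 CPM with Oct4 and 9.57 CPM with DR. It rose 3.28-fold (2.10 to 5.28), and DR was the library that stood apart. Lsr, a protein of tricellular junctions, rose 3.29-fold (1.70 to 6.85), at 14.5 CPM with Jdp2, 13.5 CPM with c-JunDN, 5.57 CPM with Oct4 and 4.42 CPM with DR. Krt18, a keratin of simple epithelia, rose 2.15-fold (1.53 to 3.07), at 38.8 CPM with Jdp2, 18.5 CPM with c-JunDN, 6.68 CPM with Oct4 and 18.0 CPM with DR. For this keratin Jdp2 stood apart as the highest library and Oct4 as the lowest.

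The rest of the epithelial list was within 2-fold. Cldn4, a tight junction claudin, was at 9.11 CPM with Jdp2 and 4.79 CPM with DR (change 0.81). Cdh1, Krt8 and Epcam, standard markers of this transition, are not covered by the naming rule and were added with their values in view. Cdh1, the gene of E-cadherin, was at 50.3 CPM with Jdp2, 20.4 CPM with c-JunDN, 37.6 CPM with Oct4 and 30.2 CPM with DR, a change of 0.72. Epcam, an epithelial adhesion molecule, was at 19.9 CPM with Jdp2 and 13.3 CPM with DR (0.55). Krt8, the partner of Krt18, ran the other way, at 379 CPM with Jdp2, 199 CPM with c-JunDN, 38.1 CPM with Oct4 and 515 CPM with DR (-0.44). The pair of partner keratins therefore did not move together.

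No gene of the mesenchymal and matrix lists fell by 2-fold, beside 1.31% of all measured genes. Of 23 measured genes for transcription factors and markers of the mesenchymal state, 1 rose, none fell and the median was 0.14. That 1 riser is 4.35%, beside 2.68% of all measured genes. The one that rose was Fn1, the gene of fibronectin, at 1304 CPM with Jdp2, 1143 CPM with c-JunDN, 973 CPM with Oct4 and 633 CPM with DR, a 2.06-fold difference (1.95 to 2.18). Pdgfrb, a growth factor receptor of stromal cells, was at 16.9 CPM with Jdp2 and 9.57 CPM with DR (0.76), and Thy1, a surface marker of fibroblasts, at 40.5 CPM with Jdp2 and 23.9 CPM with DR (0.74). Of 15 measured collagens, 2 rose (13.3%), none fell, 12 lay above 0 and the median was 0.51. Col1a2, a chain of type I collagen, was at 783 CPM with Jdp2, 449 CPM with c-JunDN, 473 CPM with Oct4 and 322 CPM with DR, a 2.43-fold difference (2.24 to 2.63). Its partner chain Col1a1 was at 718 CPM with Jdp2, 610.5 CPM with c-JunDN, 169 CPM with Oct4 and 392 CPM with DR (0.87). Col5a3, a minor fibrillar collagen, rose by 1.31.

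The list of elastic fibre, cross-linking and other matrix genes had 29 measured members, of which 4 rose (13.8%), none fell and 22 lay above 0. Its median was 0.53, and 3 of the 27 with 5 CPM in both libraries rose. Thbs1, the matrix glycoprotein thrombospondin 1, was at 368 CPM with Jdp2, 243 CPM with c-JunDN, 33.7 CPM with Oct4 and 162 CPM with DR, a 2.26-fold difference (2.03 to 2.54). Bgn, a proteoglycan of collagen fibrils, was at 244 CPM with Jdp2, 233 CPM with c-JunDN, 54.3 CPM with Oct4 and 119.6 CPM with DR (1.02). Fbln5, which organises elastic fibres, was at 17.2 CPM with Jdp2, 22.0 CPM with c-JunDN, 5.29 CPM with Oct4 and 5.52 CPM with DR (1.48). Eln, the elastin gene, had 19 counts with Jdp2 and 3 with DR, a 5.81-fold difference that rests on those few counts (1.71 to 30.6). With c-JunDN as the other library the median of the list was -0.07, and with Oct4 it was 1.53.

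Of 18 measured matrix proteases and their inhibitors, 2 rose (11.1%, beside 2.68% of all measured genes) and none fell. The median was 0.35. Mmp10, a stromelysin, was one of the risers, by 2.58-fold (1.43 to 4.89). Plat and Plau, the genes of both plasminogen activators, were within 2-fold at 0.88 and 0.86.

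**Figure D2:**
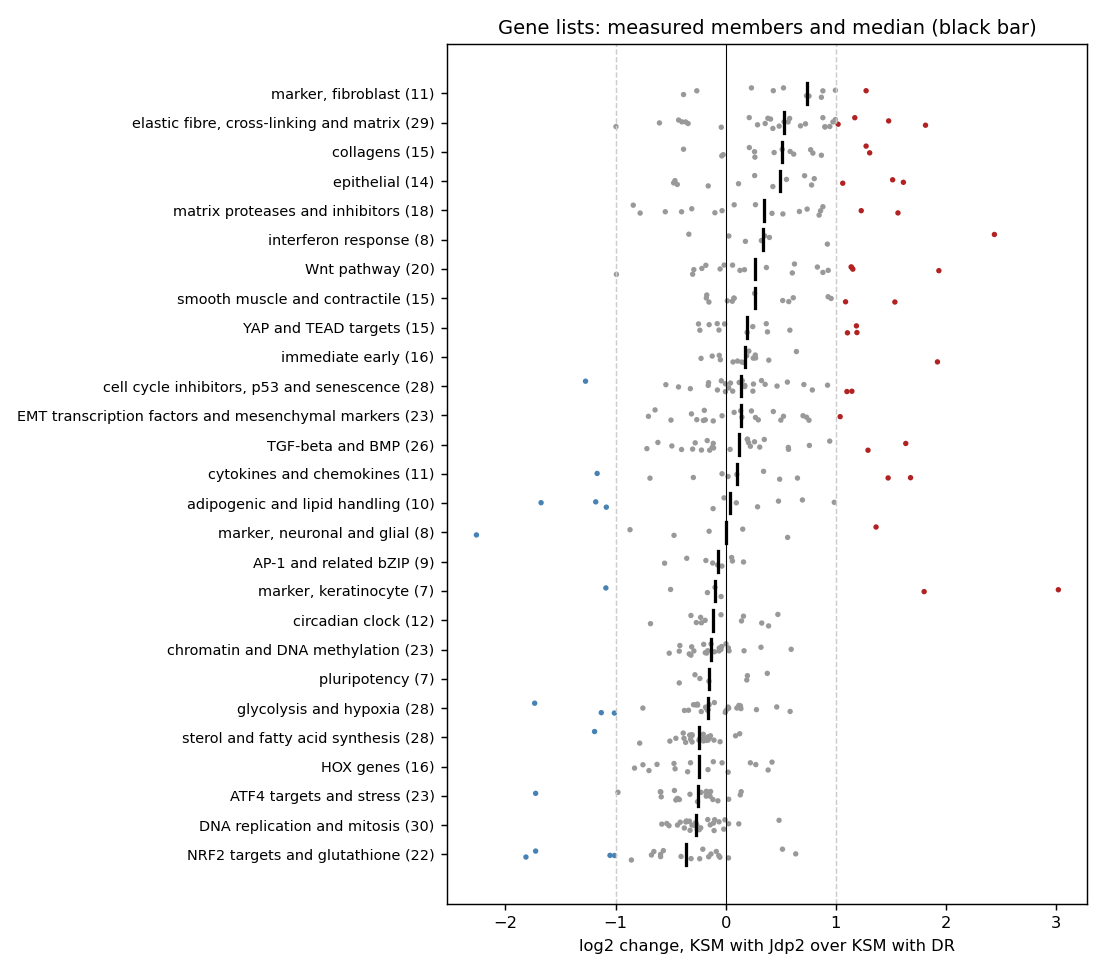
Log2 change with Jdp2 over DR in KSM for each measured member (points) of the gene lists with at least 7 measured members, number measured in brackets, ordered by their median (black bar). Red points rose and blue points fell by 2-fold or more, beyond the dashed lines; matrix, collagen and epithelial medians lie between 0.49 and 0.53, while replication, ATF4 and NRF2 medians lie between -0.36 and -0.25.

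Most genes of the cytoskeleton and of signals to the matrix stayed within 2-fold, but the share that rose was above that of all measured genes. Of 15 measured smooth muscle and contractile genes, 2 rose (13.3%, beside 2.68% of all measured genes) and none fell (median 0.26). Acta2, smooth muscle actin, was at 29.7 CPM with Jdp2, 22.0 CPM with c-JunDN, 7.51 CPM with Oct4 and 9.57 CPM with DR (1.54), and Tagln, an actin-binding protein, rose by 1.09. Of 15 measured targets of YAP and TEAD, the effectors of the Hippo pathway, 3 rose and none fell (0.20). They were Ctgf (1.19) and Cyr61 (1.11), which encode matricellular proteins, and Amotl2 (1.19), which restrains YAP. Ctgf was at 18.9 CPM with Jdp2, 9.43 CPM with c-JunDN, 3.06 CPM with Oct4 and 7.73 CPM with DR. All 3 targets were highest with Jdp2 and lowest with Oct4.

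In the list of TGF-beta and BMP genes, 2 of 26 measured members rose (7.69%, beside 2.68% of all measured genes) and none fell. Its median was 0.12. Both risers were measured through the Jdp2 library alone, and over the 24 members with 5 CPM in both libraries none rose and the median was -0.03. Inhba, an activin subunit, was at 10.1 CPM with Jdp2 and 2.58 CPM with DR (1.64), and Id4, a BMP-responsive inhibitor of helix-loop-helix factors, was at 5.06 CPM with Jdp2 and 1.47 CPM with DR (1.29). Of 20 measured Wnt pathway genes, 4 rose and none fell (0.27). Over the 18 with 5 CPM in both libraries 2 rose and the median was 0.15, since Rnf43 and Dkk3 were measured through the Jdp2 library alone. Rnf43, a ligase that removes Wnt receptors from the surface, was at 15.5 CPM with Jdp2, 7.54 CPM with c-JunDN, 0.835 CPM with Oct4 and 3.31 CPM with DR, a 4.69-fold difference (2.27 to 10.9). The ligand gene Wnt5a (1.16) and the antagonist genes Sfrp2 (1.15) and Dkk3 (1.14) also rose. Against c-JunDN the Wnt median was -0.17.

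Inflammatory and interferon genes were largely unmeasured in these cells. Of 11 measured of 32 cytokine and chemokine genes, 2 rose and 1 fell (median 0.10). With 5 CPM in both libraries 1 of 9 rose and 1 fell. Cxcl14, a chemokine of epithelia and stroma, was at 12.8 CPM with Jdp2, 5.34 CPM with c-JunDN, 1.39 CPM with Oct4 and 3.31 CPM with DR (1.68). Il1rl1, the receptor of interleukin 33, was at 22.3 CPM with Jdp2, 25.4 CPM with c-JunDN, 3.34 CPM with Oct4 and 7.36 CPM with DR (1.48). Ptgs2, the inducible prostaglandin synthase, was at 37.8 CPM with Jdp2, 44.0 CPM with c-JunDN, 47.9 CPM with Oct4 and 86.1 CPM with DR, and fell 2.28-fold (1.81 to 2.88). Il1b, Il6, Csf2, Csf3 and Tnf had no counts in either library. Of 32 interferon response genes, 8 were measured, 1 rose and none fell (0.34). The riser was Xaf1, a pro-apoptotic interferon target, on 25 counts with Jdp2 and 2 with DR, where DR lay below all 3 other libraries and under 5 CPM.

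The lowest genes included several for which the DR library, rather than Jdp2, stood apart. Lars2, the mitochondrial leucyl-tRNA synthetase, was at 845 CPM with Jdp2, 237 CPM with c-JunDN, 1421 CPM with Oct4 and 10895 CPM with DR. It was 12.9-fold lower than in DR (12.4 to 13.4), but higher than with c-JunDN by 1.83 on the log2 scale. Ifi203, an interferon-inducible DNA-binding protein, was at 2.36 CPM with Jdp2, 3.77 CPM with c-JunDN, 5.29 CPM with Oct4 and 27.6 CPM with DR (-3.09). Mtrnr2l, whose reads could be split with near-identical copies of mitochondrial RNA, Blnk, a B-cell adaptor gene, and Pax1, a sclerotome factor, changed by -2.21, -2.11 and -1.98. DR lay 2-fold above all 3 others for each of these 5 genes.

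For Ugt1a6a the Jdp2 library was the one apart. Ugt1a6a, a glucuronosyltransferase of drug detoxification, was at 3.38 CPM with Jdp2, 11.0 CPM with c-JunDN, 17.3 CPM with Oct4 and 30.2 CPM with DR. It fell 8.94-fold (4.62 to 19.3) and was more than 2-fold below each of the other 3. Ugt1a6b, a neighbour with shared exons, fell by 1.57, and how reads were divided between both genes is uncertain. Nefl, the light neurofilament gene, was at 22.3 CPM with Jdp2, 30.2 CPM with c-JunDN, 61.5 CPM with Oct4 and 111 CPM with DR (-2.26). Ptgr1, which reduces prostaglandins and leukotrienes, was at 54.7 CPM with Jdp2, 177 CPM with c-JunDN, 36.7 CPM with Oct4 and 222 CPM with DR, a 4.05-fold fall (3.40 to 4.85). Here Jdp2 and Oct4 were low and the others high. Smoc1, a matricellular protein (-1.71), and Ces1f, a carboxylesterase (-1.59), also fell. So did Krt20, a keratin of intestinal epithelium (-1.59), and Mfhas1, a leucine-rich repeat protein (-1.55). DR was 2-fold above all 3 others for Smoc1 and Krt20, and highest by a smaller margin for Ces1f and Mfhas1.

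All genes of oxidative and amino acid stress that passed 2-fold were lower with Jdp2. Of 22 measured NRF2 targets and glutathione genes, 4 fell (18.2%, beside 1.31% of all measured genes), none rose and 3 lay above 0. The median was -0.36. With 5 CPM in both libraries 3 of 20 fell. Slc7a11, the cystine importer that feeds glutathione synthesis, was at 47.9 CPM with Jdp2, 148 CPM with c-JunDN, 69.0 CPM with Oct4 and 161 CPM with DR, and fell 3.36-fold (2.77 to 4.08). Aldh3a1, an aldehyde dehydrogenase, was at 258 CPM with Jdp2, 217 CPM with c-JunDN, 159 CPM with Oct4 and 909 CPM with DR (-1.81), so DR was the library apart. Gstm1, a glutathione transferase, was at 64.8 CPM with Jdp2, 115 CPM with c-JunDN, 71.5 CPM with Oct4 and 131 CPM with DR (-1.01). Gsta1, another transferase with near-identical copies, fell by 1.05 on 9 counts with Jdp2 and 20 with DR. It was measured through DR alone. Of 23 measured ATF4 targets, 1 fell, none rose and 3 lay above 0 (median -0.25). Slc7a11 was that gene too. Nupr1, a stress-induced chromatin protein, was at 9.79 CPM with Jdp2 and 20.2 CPM with DR (-0.98), and Asns, asparagine synthetase, at 63.1 CPM with Jdp2 and 95.7 CPM with DR (-0.59).

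Of 28 measured sterol and fatty acid synthesis genes, 1 fell (3.57%, beside 1.31% of all measured genes), none rose and 2 lay above 0. The median was -0.24. Dhcr7, the last enzyme of cholesterol synthesis, was at 60.1 CPM with Jdp2, 119.7 CPM with c-JunDN, 144 CPM with Oct4 and 138 CPM with DR, and fell 2.30-fold (1.92 to 2.77). Pmvk, a mevalonate pathway kinase, was at 31.7 CPM with Jdp2 and 55.2 CPM with DR (-0.78). Of 28 measured glycolysis and hypoxia genes, 3 fell (10.7%) and none rose, with a median of -0.16. With 5 CPM in both libraries 2 of 27 fell. The 3 were Slc16a3, a lactate exporter measured through DR alone (-1.73), Pfkp, a phosphofructokinase (-1.13), and Bnip3, a mitophagy receptor (-1.01). Of 10 measured adipogenic and lipid genes, 3 fell (30.0%, beside 1.31% of all measured genes) and none rose. The median was 0.04, and 5 lay above 0. With 5 CPM in both libraries 2 of 7 fell, since Pparg was measured through DR alone. Pparg, the regulator of fat cell formation, changed by -1.68, with DR 2-fold above all 3 others. Lpl, the lipoprotein lipase, and Apod, an apolipoprotein, changed by -1.18 and -1.08, with DR highest by a smaller margin.

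None of 30 DNA replication and mitosis genes passed 2-fold, 3 lay above 0 and the median was -0.27. Plk1, a mitotic kinase, was at 60.8 CPM with Jdp2, 97.4 CPM with c-JunDN, 108 CPM with Oct4 and 91.3 CPM with DR (-0.58). Cdk1, the mitotic cyclin-dependent kinase, was at 74.9 CPM with Jdp2, 116 CPM with c-JunDN, 149 CPM with Oct4 and 109 CPM with DR (-0.53). The Jdp2 library was lowest of the 4 for both. The median of the list was -0.44 against the c-JunDN library and -0.63 against Oct4. Of 28 measured cell cycle inhibitors and p53 targets, 2 rose (7.14%) and 1 fell (3.57%), with a median of 0.14. Of all measured genes 2.68% rose and 1.31% fell. With 5 CPM in both libraries 2 of 27 rose and none fell, since Cdkn2c was measured through DR alone. Cdkn1c, the inhibitor p57, rose 2.25-fold (1.46 to 3.53), Igfbp7, a secreted protein linked to senescence, rose by 1.15, and Cdkn2c, the inhibitor p18, fell by 1.27.

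The genes of AP-1 itself were within 2-fold. None of 9 measured AP-1 and related genes of 18 passed, and the median was -0.07, which turned to 0.03 with total counts as the scale. Fosl1, a Fos-related subunit, changed by -0.55, on 106 counts with Jdp2 and 144 with DR, and Fosl2 by 0.16, on 142 counts with Jdp2 and 116 with DR. Of 16 measured immediate early genes, 1 rose, Dusp5, a phosphatase of ERK, at 9.79 CPM with Jdp2, 4.08 CPM with c-JunDN, 1.11 CPM with Oct4 and 1.84 CPM with DR (1.93). It was measured through the Jdp2 library alone. None of 23 chromatin genes, 16 HOX genes or 12 clock genes passed, with medians of -0.13, -0.24 and -0.11.

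Of 32 listed pluripotency genes, 7 reached the 5 CPM needed to be measured on day 3 and none passed 2-fold (median -0.15, and 0.12 on the TPM scale). No counts were found for 16 of the 32 in the Jdp2 library and for 13 in DR. Sall4 and Utf1 were at 0 in both, while Nanog, Esrrb and Zfp42 were at 0 with Jdp2 and at 1.47, 0.736 and 0.736 CPM with DR, of the order of the detection floor. Zfp296, an early reprogramming gene, was at 8.44 CPM with Jdp2 and 6.26 CPM with DR (0.38), and Mybl2, a proliferation factor high in stem cells, at 52.0 CPM with Jdp2 and 69.9 CPM with DR (-0.42). Identity genes were also taken from wild-type (WT) libraries outside the comparison, at an 8-fold difference between WT MEF and WT embryonic stem cells (ESC). Of 700 measured genes high in MEF, 43 rose (6.14%) and 15 fell (2.14%), with a median of 0.11. Of 329 measured genes high in ESC, 31 rose (9.42%) and 13 fell (3.95%), with a median of 0.03. Both classes thus held more called genes than the 2.68% and 1.31% of all measured genes, in both directions. With 5 CPM in both libraries, 25 rose and 10 fell of 632 MEF genes, and 10 rose and 4 fell of 273 ESC genes, beside 113 and 70 of all 10100 genes at that level. The MEF genes summed to 53792 CPM with Jdp2, 52017 CPM with c-JunDN, 40210 CPM with Oct4 and 54708 CPM with DR, against 224360 CPM in MEF with DR and no KSM. Among the KSM libraries their sum was lowest with Oct4.

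Markers of the labelled cell type were present, while those of most other types were near the floor. Of 12 fibroblast markers 11 were measured, 1 rose, none fell and 9 lay above 0 (median 0.74). Their sum was 4674 CPM with Jdp2, 4069 CPM with c-JunDN, 3545 CPM with Oct4 and 4379 CPM with DR, and 35872 CPM in MEF with DR. Macrophage markers summed to 20.9 CPM with Jdp2 and 19.9 CPM with DR, with Ptprc and Csf1r at 0 in both. Endothelial markers summed to 34.4 CPM with Jdp2 and 33.1 CPM with DR, with Pecam1 at 0 in both. Skeletal muscle markers summed to 10.1 CPM with Jdp2 and 7.36 CPM with DR, with Myod1 at 0 in both. Trophoblast and endoderm markers summed to 13.2 CPM with Jdp2 and 9.57 CPM with DR. Neuronal and glial markers summed to 603 CPM with Jdp2 and 801 CPM with DR, and 1 of 8 measured rose (Mbp, 1.37) and 1 fell (Nefl). With 5 CPM in both libraries none of 6 rose and 1 fell. Keratinocyte markers summed to 110.4 CPM with Jdp2, 50.6 CPM with c-JunDN, 23.1 CPM with Oct4 and 144 CPM with DR. Of 7 measured, Krt5 and Ivl rose and Sfn fell, with DR above all 3 others for Sfn and with Krt5 and Ivl measured through the Jdp2 library alone, while Trp63, the regulator of stratified epithelium, was at 0 in both. Krt5, a basal keratin, had 30 counts with Jdp2 and 1 with DR, a 27.5-fold difference (4.57 to 1122). Both measured erythroid genes fell, with Hbb-y, an embryonic globin, at 13.5 CPM with Jdp2, 40.5 CPM with c-JunDN, 89.1 CPM with Oct4 and 33.5 CPM with DR. Hba-a1, an alpha globin with a near-identical copy, had 2 counts with Jdp2 and 19 with DR, and DR was the library apart. The part of such cells in the epithelial, keratin and globin differences was not tested. With c-JunDN in place of DR the median of the fibroblast markers was 0.07.

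The other KSM libraries were measured against DR and against Jdp2 in the same way. The same rule gave 194 genes higher (1.81%) and 174 lower (1.62%) of 10715 with c-JunDN against DR, and 500 higher (4.65%) and 717 lower (6.67%) of 10750 with Oct4 against DR. These comparisons share the DR library with the main pair. Taken directly, 176 genes were higher (1.63%) and 71 lower (0.658%) of 10792 with Jdp2 than with c-JunDN, and 986 higher (9.02%) and 527 lower (4.82%) of 10934 with Jdp2 than with Oct4. Of the 288 genes that rose against DR, 62 were also 2-fold higher than with c-JunDN and 202 than with Oct4. Of the 141 that fell, 21 were 2-fold lower than with c-JunDN and 41 than with Oct4. By at least 2-fold, Jdp2 lay above all 3 other libraries for 54 of the 288 and below all 3 for 12 of the 141. By the same margin, DR lay below all 3 others for 22 of the 288 and above all 3 for 39 of the 141.

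Several of the 54 were at levels well above the floor. Mfge8, Msln, Tnxb, Lad1 and Nccrp1 are not covered by the naming rule and were picked from these 54 with their values in view. Mfge8, a secreted bridge to apoptotic cells, was at 303 CPM with Jdp2, 113 CPM with c-JunDN, 64.3 CPM with Oct4 and 128 CPM with DR, a 2.37-fold rise over DR (2.09 to 2.69). Msln, mesothelin, was at 88.1 CPM with Jdp2, 23.9 CPM with c-JunDN, 25.0 CPM with Oct4 and 32.4 CPM with DR, a 2.72-fold rise (2.13 to 3.50). Tnxb, a tenascin of connective tissue, was at 43.5 CPM with Jdp2, 11.0 CPM with c-JunDN, 3.06 CPM with Oct4 and 16.6 CPM with DR. Lad1, an anchoring filament protein of epithelial basement membranes, was at 14.9 CPM with Jdp2, 4.08 CPM with c-JunDN, 0.278 CPM with Oct4 and 4.42 CPM with DR. Nccrp1, a gene of stratified epithelia, was at 27.3 CPM with Jdp2, 8.80 CPM with c-JunDN, 4.17 CPM with Oct4 and 12.5 CPM with DR. In all 5 the Oct4 or c-JunDN library was the lowest and DR lay between 2.18-fold and 3.36-fold under Jdp2.

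**Figure D3:**
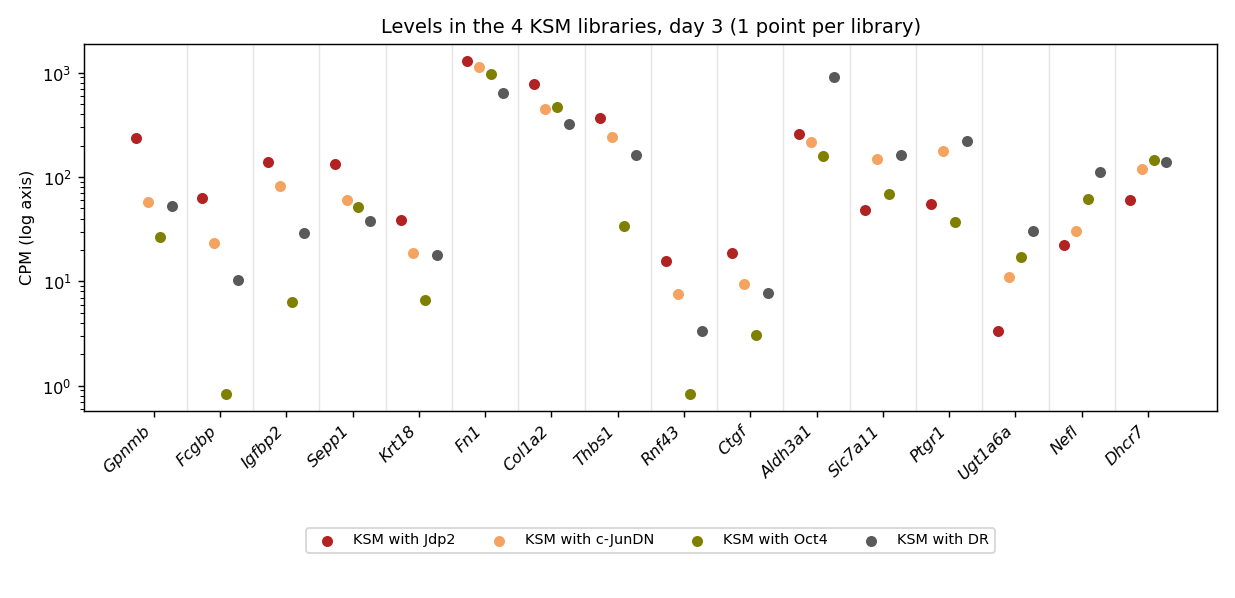
CPM (log axis) of 16 named genes in the 4 KSM libraries on day 3, 1 point per library, with Jdp2 at the left of each gene and DR at the right. Gpnmb, Sepp1 and Krt18 show Jdp2 at least 2-fold above the other 3 libraries, and Aldh3a1 shows DR apart. Fcgbp, Igfbp2, Rnf43 and Krt18 show Oct4 lowest.

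Jdp2 was also given to MEF without KSM, and this pair shares no library with the main one. There, 644 of 11080 measured genes were higher (5.81%) and 700 lower (6.32%) with Jdp2 than with DR. Of the 288 genes that rose in KSM, 177 were measured in MEF, 41 of them higher (23.2%) and 22 lower (12.4%). Of the 141 that fell in KSM, 70 were measured in MEF, 5 of them higher (7.14%) and 30 lower (42.9%). The genes that passed neither way in KSM were higher in 3.22% and lower in 4.75%. Over the 10027 genes measured in both pairs, the 41 shared rises are 11.4% of those in MEF and the 30 shared falls 5.80%. Both called sets thus held more changed genes in MEF than the rest did, with the larger part in the direction seen in KSM. With 20 CPM in both pairs, 13 of 53 risers were higher (24.5%) and 8 lower (15.1%) in MEF, and of 28 genes that fell 1 was higher (3.57%) and 13 lower (46.4%). The other 6715 genes at that level were higher in 1.74% and lower in 3.59%.

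The genes of the naming rule that rose in both settings were Jdp2, Igfbp2, Entpd2, Nrk, Eln, Bgn and Inhba. Mfge8 and Tnxb, picked outside that rule, also rose in MEF, by 1.00 and 1.99. Igfbp2 was at 423 CPM in MEF with Jdp2 and 48.8 CPM in MEF with DR, and Nrk at 297 CPM with Jdp2 and 44.0 CPM with DR. Eln was at 5963 CPM in MEF with Jdp2 and 54.6 CPM in MEF with DR, a change of 6.74 beside 1.82 in KSM. The genes of the naming rule that fell in both were Ugt1a6a, Ugt1a6b, Slc16a3, Bnip3, Smoc1, Ptgr1, Gstm1, Dhcr7, Lpl and Ptgs2. Dhcr7 was at 31.0 CPM in MEF with Jdp2 and 71.1 CPM in MEF with DR, a change of -1.17 beside -1.19 in KSM.

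Several lists are given here for both settings. Interferon response genes rose in 19 of 32 in MEF (median 1.12), beside 1 of 8 measured in KSM. Glycolysis and hypoxia genes fell in 18 of 28 in MEF (-1.31), beside 3 of 28 in KSM (-0.16). Cytokines and chemokines fell in 11 of 19 in MEF (-1.72), beside 1 of 11 in KSM (0.10). The matrix list had 9 higher and 14 lower of 34 in MEF (-0.77), beside 4 higher and none lower of 29 in KSM (0.53). The difference between settings has 1 library in each corner and was not tested.

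**Figure D4:**
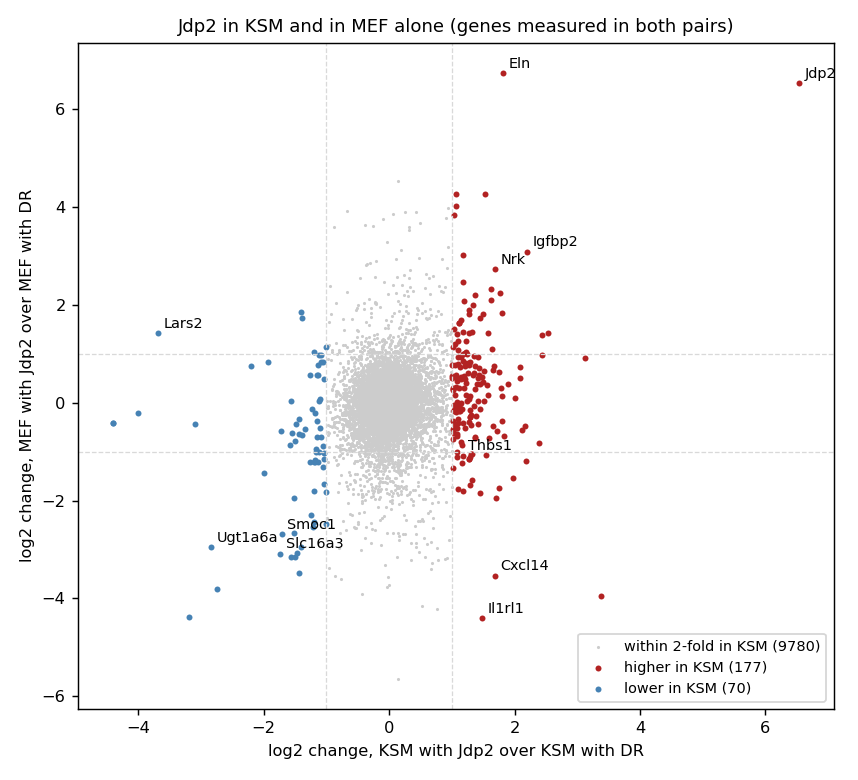
Log2 change with Jdp2 over DR in KSM (horizontal axis) and in MEF without KSM (vertical axis) for genes measured in both pairs, 1 library per group. Of the 70 genes lower in KSM (blue) 30 lie under the lower dashed line in MEF, and of the 177 higher in KSM (red) 41 lie over the upper one and 22 under the lower one.

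Promoters were searched for the sequences that AP-1 factors bind, in a window of 250 bases before to 50 after each RefSeq transcript start, on both strands. The TRE was searched as TGANTCA, with any base in the middle, where the TRE itself has C or G. TGATTCA and TGAATCA therefore also count, so these shares are not of the TRE alone. TGANTCA was in 10.3% of the 203 matched promoters of genes that rose and 11.7% of the 111 of genes that fell. It was in 5.80% of the 8693 of measured genes and 8.97% of all 27025 genes in the table. The CRE, TGACGTCA, was in 1.97%, 2.70%, 3.70% and 2.03% of the same sets. The related TGACGCAA was in 0 of the promoters of genes that rose, and in 0.901%, 1.14% and 0.562% of the other sets. The motif TGACNNNGC, bound by NRF2, was in 16.3%, 13.5%, 17.1% and 14.0%. The following stretches hold a match of TGANTCA in some of the named genes that passed 2-fold, with the match in capitals. They are shown since a Jdp2 and Jun dimer could bind a TRE near a changed gene. A match is a description, and no binding data for Jdp2 were used here. Coordinates and strand are those of RefSeq on GRCm38.p6, while the expression files are on mm9. The first 4 genes rose and the last pair fell. A match was also found in Xaf1 and Ivl, which rose, and in Ifi203, which fell, and those stretches are not shown.
Entpd2, chr2:25395728-25395828, plus strand: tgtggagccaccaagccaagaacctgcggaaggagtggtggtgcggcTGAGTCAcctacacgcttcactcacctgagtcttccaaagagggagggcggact
Igfbp2, chr1:72825301-72825386, plus strand: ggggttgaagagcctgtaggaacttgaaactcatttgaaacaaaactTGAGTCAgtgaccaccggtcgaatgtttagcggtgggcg
Lsr, chr7:30973481-30973581, minus strand: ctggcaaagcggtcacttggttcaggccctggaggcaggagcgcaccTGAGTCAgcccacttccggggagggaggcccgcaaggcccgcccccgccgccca
Mmp10, chr9:7502232-7502332, plus strand: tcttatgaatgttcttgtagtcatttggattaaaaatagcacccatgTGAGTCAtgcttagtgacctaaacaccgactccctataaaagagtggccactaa
Dhcr7, chr7:143830061-143830161, plus strand: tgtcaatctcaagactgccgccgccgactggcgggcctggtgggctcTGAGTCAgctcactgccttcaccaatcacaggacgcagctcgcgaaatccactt
Ugt1a6a, chr1:88134638-88134738, plus strand: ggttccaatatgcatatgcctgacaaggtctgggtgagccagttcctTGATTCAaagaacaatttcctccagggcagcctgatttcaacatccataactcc

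The match began 99 bases before a transcript start in Entpd2, 39 in Igfbp2, 65 in Lsr, 63 in Mmp10, 106 in Dhcr7 and 124 in Ugt1a6a. Igfbp2 and Dhcr7 have other starts as well, and the windows of the other Dhcr7 starts held no TRE. The letters were TGAGTCA in the first 5 and TGATTCA in Ugt1a6a. Genes that rose and genes that fell both had such matches.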

How the data were processed

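Per the labels' protocols, total RNA was isolated by a Trizol method and sequenced from Illumina TruSeq RNA libraries. The authors quantified genes with RSEM 1.1.21 on mm9, per the submitters' processing notes, and the RNA aligner is not given in the sources used here. The deposited expected counts are not whole numbers and were rounded. The deposited fraction of transcripts per gene was multiplied to TPM here and used as an alternative. All 12 libraries with the same 20325 RefSeq-based names were scaled together with the TMM method of edgeR 4.0.16 (R 4.3.3), and scaled values are called CPM. The factors were 1.13 for KSM with Jdp2 and 1.06 with DR. A pseudocount of 1, a minimum of 5 CPM in either library and a 2-fold threshold were used. With 1 library per group no test across samples was possible.

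Named genes are the introduced factors, up to 4 members of each list with the largest absolute change, and the 15 highest and 15 lowest genes with at least 20 CPM whose counting interval leaves out 1. Unnamed gene models and copies were left out, and some genes that these rules name are not reported here. The comparison, the gene lists and the rules were chosen with earlier results of these data known. Of the names in the lists, 2 were absent and 6 were found through a synonym. No libraries held identical values. The procedure was tested on simulated data. Alternatives were total counts, DESeq2 1.42.0 size factors, TMM over the KSM libraries, TPM, other pseudocounts and filters, and the other KSM libraries in place of DR. The chromatin immunoprecipitation samples and the MEF Oct4 library, on other gene names, were not used here.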

Additional observations from a re-analysis of the deposited data

Results flagged for a closer look

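For 7 named genes Jdp2 went past 2-fold one way in KSM and the other way in MEF, each against its own DR library. With 1 library per group the difference between both settings was not tested. The matrix genes Col5a3 and Thbs1 changed by 1.31 and 1.17 in KSM, and by -1.04 and -1.09 in MEF. Acta2, smooth muscle actin, changed by 1.54 in KSM and -1.06 in MEF. The chemokine Cxcl14 changed by 1.68 in KSM and -3.53 in MEF, and Il1rl1, the interleukin 33 receptor, by 1.48 in KSM and -4.41 in MEF. Atp1b1, the sodium pump subunit, changed by 2.18 in KSM and -1.19 in MEF. Lars2, the mitochondrial tRNA synthetase, changed by -3.69 in KSM and 1.43 in MEF. It was at 10895 CPM in KSM with DR, above the 3 other KSM libraries. Mtrnr2l, which held the same order of the KSM libraries, changed by -2.21 in KSM and 0.76 in MEF. The first 6 of these genes were at higher levels in MEF with DR than in KSM with DR: Thbs1, for one, was at 9641 CPM in MEF with DR and 162 CPM in KSM with DR.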

How the results depend on the processing

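No paired analysis was possible because each group holds 1 library. In place of 288 genes that rose and 141 that fell, the counts were 684 and 266 with no filter on low values, 85 and 63 with at least 20 CPM, and 100 and 65 with a pseudocount of 5. They were 176 and 71 against KSM with c-JunDN, 986 and 527 against KSM with Oct4, and 54 and 12 against all 3 other KSM libraries. DESeq2 size factors (308 and 139), the TMM of the KSM libraries (341 and 146), total counts (386 and 129), TPM (313 and 118) and a pseudocount of 0.25 (348 and 166) stayed within 1.5 times. TPM moved the median of all genes by 0.11 and shared 216 of the rises and 93 of the falls. Of 143 named genes, none that had passed 2-fold changed direction under another scaling or pseudocount, where up to 6 moved in size. Changes near 0 could turn, as for Klf4, at -0.01 on the main scale but 582 TPM with Jdp2 and 544 TPM with DR. The median of the AP-1 list turned positive with total counts (0.03) and TPM (0.04), as did those of pluripotency (0.12) and clock genes (0.10) with TPM. Turns against the other KSM libraries are given only for named genes that had passed 2-fold against DR. Genes with smaller changes also turned, such as Thy1 (0.74 against DR and -0.28 against c-JunDN). Against c-JunDN the direction turned for Fbln5 (-0.34), Il1rl1 (-0.18), Trh (-0.23), Bnip3 (0.31), Aldh3a1 (0.25), Sfn (0.04), Hba-a1 (0.04), Lars2 (1.83), Mtrnr2l (0.15) and Blnk (0.42). Against Oct4 it turned for Pou5f1 (-7.22), the added gene itself, and for Aldh3a1 (0.70), Gsta1 (2.01), Pparg (0.60), Sfn (1.41), Hba-a1 (0.74), Blnk (0.69), Ptgr1 (0.56), Smoc1 (1.40), Ces1f (2.36) and Krt20 (1.05). The cause was not tested. Depth limits genes under 1.01 CPM in the Jdp2 library.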

Other observations

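Some genes of the epidermis and its appendages were at low levels among the 54 genes 2-fold higher with Jdp2 than in all 3 other KSM libraries. The 54 also held Krt5, a basal keratin, and Krt18, a keratin of simple epithelia. Keratinocyte markers together summed to 110.4 CPM with Jdp2 and 144 CPM with DR. The genes below were picked with their values in view and carry no test. Ivl, the envelope precursor involucrin, had 15 counts with Jdp2, 4 with c-JunDN, 1 with Oct4 and 2 with DR. Asprv1, a protease of the granular layer, had 32 counts with Jdp2, 11 with c-JunDN, 2 with Oct4 and 3 with DR. Krt79, a keratin of hair follicle ducts, had 26 counts with Jdp2, 6 with c-JunDN, 0 with Oct4 and 7 with DR. Sprr2a1 and Sprr2a2, envelope precursors whose reads were split evenly between both copies, had 31 counts each with Jdp2, 2 with c-JunDN, 1 with Oct4 and 9 with DR. Krt6a, a keratin of activated keratinocytes, went with DR instead, at 22.6 CPM with Jdp2, 3.77 CPM with c-JunDN, 1.67 CPM with Oct4 and 32.4 CPM with DR. The epithelial genes thus did not share one order of the 4 libraries.

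The 12 genes that fell and lay 2-fold below all 3 others included P2ry1, Mapk12 and Tshz3. These 3 encode a receptor of extracellular ADP, the p38 gamma kinase and a zinc finger factor. P2ry1 was at 2.70 CPM with Jdp2, 7.23 CPM with c-JunDN, 14.8 CPM with Oct4 and 12.9 CPM with DR. Mapk12 was at 2.03 CPM with Jdp2, 6.91 CPM with c-JunDN, 7.24 CPM with Oct4 and 8.10 CPM with DR. Tshz3 was at 3.38 CPM with Jdp2, 12.9 CPM with c-JunDN, 20.6 CPM with Oct4 and 8.83 CPM with DR. Each rests on 6 to 10 counts in the Jdp2 library. These genes too were picked with their values in view.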
